A study of Mus musculus with 4 samples.

Results

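Transcripts of 9 steroid-modifying enzymes were followed in mouse liver after alcohol feeding, with and without the chromatin remodeler Brg1 in hepatocytes. The 9 genes, Cyp17a1, Hsd3b2, Hsd3b3, Hsd3b5, Hsd11b1, Srd5a1, Akr1d1, Akr1c6 and Hsd17b2, were taken by symbol from the 22103 entries of the expression table. Cyp17a1 was selected on its FPKM values in these 4 livers, because it was low in the Brg1-deficient ones, so its difference between the groups is described here without a test. The other 8 were included for their place in steroid metabolism, with earlier results of these data known. RNA-seq covered 2 livers of wild type (WT) mice and 2 livers of Brg1 LKO mice. The latter came from a cross of Smarca4 f/f mice with Alb-Cre mice, which removes Smarca4, the Brg1 gene. The study calls this knockout hepatocyte-specific, and whether the other cells of the liver kept the gene was not tested here. The WT mice were littermates, and whether they carried floxed alleles is not given in the sources used here. All mice, controls included, were 8-week-old males fed ethanol chronically and then given a single binge (the NIAAA model), and the labels give 15 days of alcohol. No liver without alcohol was measured, so the comparison is one of genotype under alcohol. The labels number 2 liver samples per group without stating that each came from a separate mouse, and the p-values below measure only the spread between these samples.

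The liver inactivates and remodels most circulating steroids, and it does so with enzymes that act on few positions of the steroid skeleton. Hydroxysteroid dehydrogenases switch a hydroxyl group to a keto group or back, which turns a hormone on or off. Reductases saturate the A ring and commit a steroid to excretion or to another receptor ligand, while Cyp17a1, best known from the gonads, hydroxylates and cleaves progestogens to give androgen precursors.

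Levels are given in FPKM, fragments per kilobase of transcript scaled to the size of the library, which already allows for transcript length. Low values stepped with the worth of 1 read, which put the depth at 72441363 to 80767726 reads per liver, and reads quoted for single genes are estimates from these steps. Differences between groups are on the log2(FPKM + 0.1) scale, LKO minus WT, which understates the change of low genes. The limma fit took in the 12346 genes whose mean reached 0.1 FPKM, all 9 enzymes among them. The threshold was an unadjusted p under 0.05 with more than a 2-fold change, and 121 genes passed it, 0.980% of those tested. Permuting 2 livers against 2 cannot give a two-sided p below 0.333, and limma instead borrows its error estimate from all genes. After Benjamini-Hochberg adjustment 0 of the 12346 genes had a limma p under 0.05, and 247 did before it. A voom fit of the estimated reads also gave 0 after adjustment, and 241 before it.

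Smarca4 measured 1.78 and 1.95 FPKM in WT, against 0.608 and 0.579 FPKM in LKO livers, 31.8% of the WT level. Its log2 difference of −1.50 passed the threshold (limma unadjusted p = 0.000548, adjusted p = 1.00). The defining hepatocyte transcripts were abundant in every liver, with albumin (Alb) at 10710 to 12486 FPKM and transferrin (Trf) at 7253 to 8486 FPKM. Of 12 hepatocyte markers, 0 passed the threshold (limma, 0 with an unadjusted p under 0.05), and their median log2 difference was 0.19. The 11 macrophage markers were all higher in the LKO livers, 3 of them past the threshold (Cd5l, Vsig4 and Cd68), with C1qa and Clec4f the most abundant. Under 13 alternatives Vsig4 lost its call in 10, Cd5l in 5 and Cd68 in 0. Summed over the 11, they came to 48.8 and 49.9 FPKM in WT livers and 63.2 and 139 FPKM in LKO replicates 1 and 2. Their median log2 difference was 0.84, and 0.25 without LKO replicate 2. Neutrophil markers (median 0.28, led by S100a9 and S100a8), sinusoidal endothelial markers (−0.25, Pecam1 and Lyve1), stellate cell markers (0.04, Ecm1 and Dcn) and cholangiocyte markers (−0.18, Spp1 and Sox9) had no gene past the threshold. Their part in the enzyme levels was not tested. In whole liver, fewer cells of a type and less RNA per cell cannot be told apart.

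The 9 enzymes spanned more than 3 orders of magnitude. Hsd11b1 led with a mean of 312 FPKM over the 4 livers, followed by Akr1c6 with a mean of 55.3 FPKM and by Hsd3b3, which ranged from 13.6 to 28.1 FPKM. The next means were Hsd17b2 at 12.0, Akr1d1 at 7.84, Srd5a1 at 4.07, Hsd3b2 at 2.73 and Cyp17a1 at 1.81 FPKM, and Hsd3b5 was last at 0.116 FPKM. The first 4 genes kept this order in every liver, although Hsd3b3 and Hsd17b2 differed by little in WT replicate 1 (13.6 and 13.1 FPKM). The ranges of Hsd17b2 and Akr1d1 overlapped across the 4 livers, as did those of each following pair down to Hsd3b2 and Cyp17a1. Within every liver, however, Akr1d1 was above Srd5a1 and Srd5a1 above Hsd3b2. Hsd17b2 and Akr1d1 changed order in LKO replicate 1, and Hsd3b2 and Cyp17a1 did so in WT replicate 1. Hsd3b5 was below every other enzyme in all 4 livers.

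**Figure D1:**
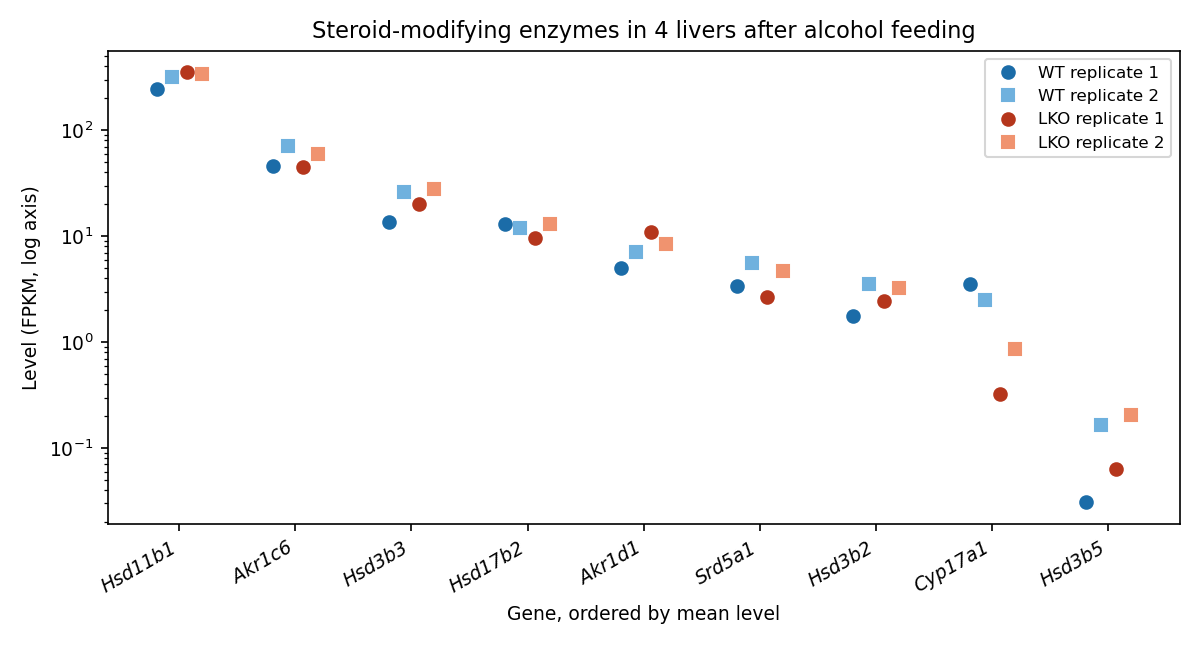
Level of each of the 9 enzymes in FPKM on a log axis, 1 point per liver (blue WT, red LKO, circle replicate 1, square replicate 2), ordered by mean level. Cyp17a1 is the enzyme whose LKO points (0.324 and 0.858 FPKM) lie far below its WT points (3.56 and 2.48 FPKM), and Hsd3b5 lies below all others.

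Cyp17a1 lies on chromosome 19 of GRCm38 at chr19:46667165-46672974 on the minus strand, and its listed transcript (ENSMUST00000026012) has 8 exons and 1815 bases. No other annotated gene overlaps it. It was at 3.56 and 2.48 FPKM in WT replicates 1 and 2, on an estimated 522 and 359 reads. In LKO replicates 1 and 2 it was at 0.324 and 0.858 FPKM, on an estimated 46 and 113 reads. Both LKO livers were below both WT livers, and LKO replicate 1 was the lower of the pair. On average it reached 3.02 ± 0.762 FPKM in WT livers (SD, n = 2) and 0.591 ± 0.377 FPKM in LKO livers (SD, n = 2), 5.11-fold apart, and the log2 difference of −2.27 (standard error 0.41) was the lowest but 1 among all genes tested. These values chose the gene and are a description. After rescaling each liver by its median ratio to the others, the 4 values were 3.91, 2.20, 0.367 and 0.773 FPKM. The log2 difference was −1.68 without LKO replicate 1, −2.86 without LKO replicate 2, −1.35 with a pseudocount of 1, and otherwise between −2.52 and −2.02.

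The level of Cyp17a1 can also be set against another enzyme of the same liver, which removes the scale of the library. Cyp17a1 amounted to 27.1% and 20.7% of the Hsd17b2 level in the WT livers and to 3.35% and 6.57% in the LKO livers. Against Hsd3b3, whose family acts beside Cyp17a1 in androgen synthesis, it amounted to 26.1% and 9.49% in the WT livers and to 1.61% and 3.05% in the LKO livers. On both of these scales, picked after the values were seen, the groups were apart. The ratios reuse the values that chose Cyp17a1, so they are a description and no separate support for its fall.

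Cyp17a1 is best known from steroid-producing cells, whose other genes were examined in the same libraries. Of 11 adrenocortical and gonadal markers, 5 were listed at 0 in all 4 livers, namely Cyp11b2, the adrenal and gonadal regulators Nr5a1 and Nr0b1, and the receptors Mc2r and Lhcgr. Cyp11a1, which makes the first cut of cholesterol in steroid synthesis, was at 0 in 3 livers and at 0.00801 FPKM in LKO replicate 2. Star, the cholesterol importer of the same glands, was between 0.0709 and 0.216 FPKM. The 11 markers summed to 1.64 and 3.40 FPKM in the WT livers and to 1.47 and 8.76 FPKM in the LKO livers. Most of each sum was Cyp21a1, a steroid hydroxylase, at 0.702, 1.96, 0.218 and 7.43 FPKM, together with Insl3, whose gene overlaps Jak3. The part of steroid-producing cells in the Cyp17a1 level was not tested.

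The genes on either side of Cyp17a1 did not share its pattern. The 6 nearest expressed neighbours, chosen after the values were seen, had log2 differences of −0.15 (Arl3), −0.63 (Sfxn2), −0.09 (Wbp1l), 0.03 (2010012O05Rik), −0.21 (As3mt) and 0.12 (Cnnm2). The WT and LKO values overlapped in all 6, and 0 of them passed the threshold or had an unadjusted p under 0.05 (limma). Among genes averaging 1 FPKM or more, the 5 with the profile most like that of Cyp17a1 were ranked by the Euclidean distance between centred log2(FPKM + 0.1) profiles over the 4 livers. They were the chemokine gene Cxcl14 (distance 0.89), Ifi27l2b (1.18), Wdr54 (1.21), Smarca4 itself (1.24) and Rtkn (1.27). Cxcl14 measured 12.5 and 3.73 FPKM in WT, against 0.772 and 1.69 FPKM in LKO livers. It was picked for its likeness to Cyp17a1 over these same livers, so the shared lowest liver, LKO replicate 1, is no separate result. Wdr54 and Rtkn overlap on opposite strands and are not independent measurements.

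**Figure D2:**
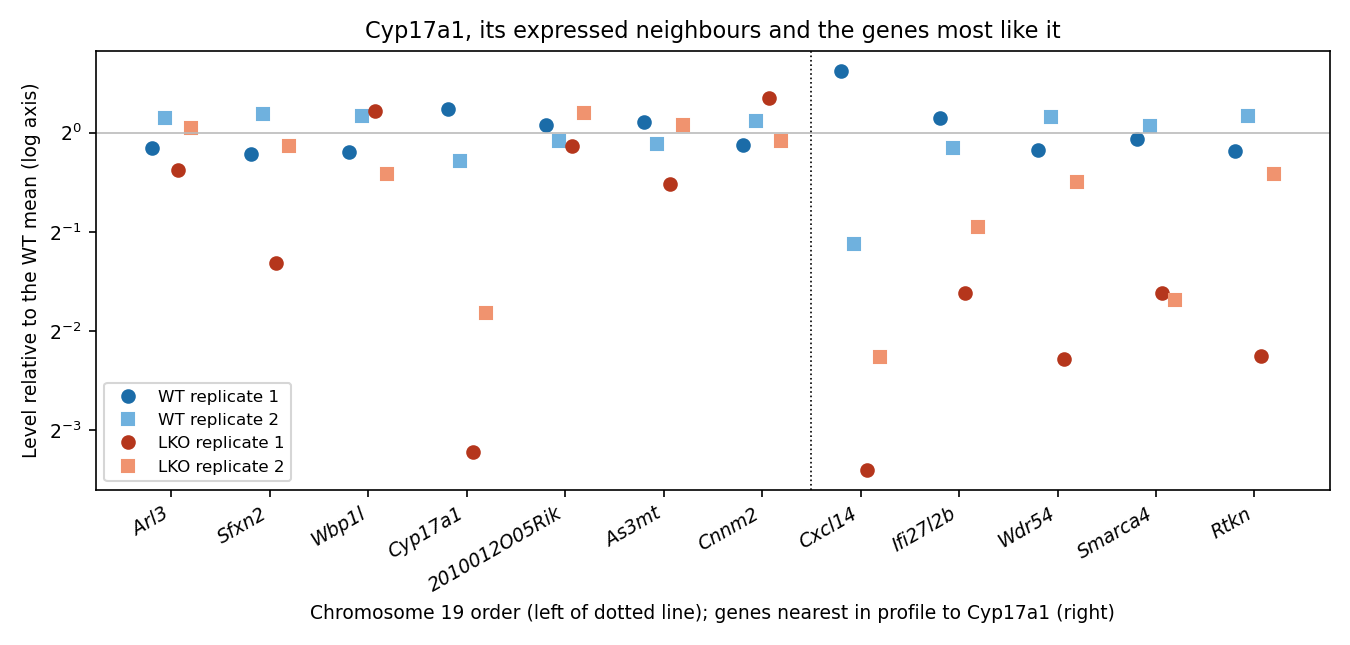
Level relative to the WT mean on a log axis, 1 point per liver (blue WT, red LKO), for Cyp17a1 between its 6 expressed neighbours on chromosome 19 (left) and for the 5 genes with the most similar profile (right). The LKO points of Cyp17a1 lie below its WT points, while the points of both groups overlap for each neighbour.

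The Hsd3b genes encode dehydrogenases that convert the hydroxyl group of the A ring to a ketone, the step that gives progestogens and androgens their active form. Hsd3b5 is an exception, a reductase that works in the opposite direction and is known as a gene of the adult male mouse liver. The 3 measured here lie in 1 cluster on chromosome 3, all on the minus strand and within the span of Zfp697 on the opposite strand. Hsd3b2 is at chr3:98709255-98724543 (6 exons), Hsd3b3 at chr3:98741523-98763127 (3 exons) and Hsd3b5 at chr3:98618634-98630252 (3 exons). Because near-identical copies can share reads, the first 90 coding bases of each listed transcript are shown, with capitals where a base differs from Hsd3b3.
Hsd3b2: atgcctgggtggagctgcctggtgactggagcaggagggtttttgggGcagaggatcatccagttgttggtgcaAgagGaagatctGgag
Hsd3b3: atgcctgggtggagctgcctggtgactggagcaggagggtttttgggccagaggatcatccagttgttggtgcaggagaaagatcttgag
Hsd3b5: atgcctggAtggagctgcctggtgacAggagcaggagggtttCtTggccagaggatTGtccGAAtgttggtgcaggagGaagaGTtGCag
Hsd3b2 differs from Hsd3b3 at 4 of these bases and Hsd3b5 at 14. Over the whole aligned coding sequence, Hsd3b2 and Hsd3b3 were 94.4% identical. Over the full listed transcripts, their longest shared run was 147 bases. Of the 75-base windows of the Hsd3b3 transcript 9.93% occurred in Hsd3b2, and of those of Hsd3b2 3.76% occurred in Hsd3b3. Their levels are therefore uncertain to the extent that reads were split between them. Hsd3b5 was 80.9% identical to Hsd3b3 and 80.5% identical to Hsd3b2, and it shared no 75-base window with either.

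Hsd3b3 was the main Hsd3b transcript among the 3. It measured 13.6 and 26.2 FPKM in WT, against 20.1 and 28.1 FPKM in LKO livers, on an estimated 1588 to 3009 reads. The groups overlapped, and the lowest liver was WT replicate 1. The log2 difference was 0.33 (95% interval −0.49 to 1.15, limma adjusted p = 1.00).

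Hsd3b2 measured 1.75 and 3.52 FPKM in WT, against 2.42 and 3.25 FPKM in LKO livers. The groups overlapped here too, with a log2 difference of 0.17 (95% interval −0.66 to 1.00, limma adjusted p = 1.00). Both genes were lowest in WT replicate 1, but Hsd3b3 was highest in LKO replicate 2 and Hsd3b2 in WT replicate 2. Within each liver Hsd3b2 stood at 12.9%, 13.4%, 12.1% and 11.6% of the Hsd3b3 level in WT replicates 1 and 2 and LKO replicates 1 and 2, a span of 1.16-fold between the highest and the lowest. Hsd3b6, a further copy that is 94.6% identical to Hsd3b3 in its coding sequence, stood at 10.3%, 8.26%, 9.04% and 7.78% of it, a span of 1.33-fold. These ratios were picked after the values were seen, and how far reads were split between the copies was not tested.

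Hsd3b5 was close to the floor in every liver. It measured 0.0308 and 0.164 FPKM in WT, against 0.0638 and 0.206 FPKM in LKO livers, on an estimated 4, 20, 8 and 23 reads. A count of 0 would still allow up to 3 reads, and WT replicate 1 was just above that. The groups overlapped and the log2 difference was 0.27 (95% interval −0.69 to 1.23, limma adjusted p = 1.00). Hsd3b5 was between 0.226% and 0.733% of the Hsd3b3 level. The annotations disagree on its start, which RefSeq places upstream of the listed transcript (ENSMUST00000044094), and reads of other exons may be missing from this entry.

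The low level of Hsd3b5 was set beside other sex-biased transcripts of the liver. Ddx3y, a gene of the Y chromosome, measured 8.08 and 7.98 FPKM in WT, against 8.40 and 9.48 FPKM in LKO livers, and Uty, Kdm5d and Eif2s3y also had reads in all 4. The 12 male-biased liver genes listed were all tested, led by the urinary proteins Mup3 (1494 to 2047 FPKM) and Mup20 (477 to 782 FPKM). Of these, 3 were higher and 9 lower in the LKO livers, 0 were past the threshold (limma, with Nudt7 alone at an unadjusted p under 0.05), and the median log2 difference was −0.17. Of 12 female-biased genes 10 were tested, led by Cyp2a4 and Cyp3a41a, with 3 higher, 7 lower and a median of −0.41. Cyp2b9, a P450, was the only female-biased gene past the threshold, with 0.665 and 1.09 FPKM in WT livers and 0.314 and 0.389 FPKM in the LKO livers (log2 difference −1.09, limma adjusted p = 1.00), and its reads may be split with near-identical Cyp2b copies. Its difference was −0.77 without WT replicate 2, −0.97 without LKO replicate 1 and −0.47 with a pseudocount of 1, all short of the threshold.

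The promoters of the 3 cluster genes are shown because the genes stood far apart in level, Hsd3b5 most of all. Each is the 250 bases before the RefSeq start on GRCm38.p6, on the minus strand, for Hsd3b2 chr3:98724544-98724793, for Hsd3b3 chr3:98763129-98763378 and for Hsd3b5 chr3:98645535-98645784. Capitals mark runs of at least 12 bases that occur in more than 1 of the 3.
Hsd3b2: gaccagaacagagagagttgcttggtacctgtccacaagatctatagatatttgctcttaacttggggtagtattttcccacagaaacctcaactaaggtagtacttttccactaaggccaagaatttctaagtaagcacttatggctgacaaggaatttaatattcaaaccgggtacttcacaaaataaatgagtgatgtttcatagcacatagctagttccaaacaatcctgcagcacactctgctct
Hsd3b3: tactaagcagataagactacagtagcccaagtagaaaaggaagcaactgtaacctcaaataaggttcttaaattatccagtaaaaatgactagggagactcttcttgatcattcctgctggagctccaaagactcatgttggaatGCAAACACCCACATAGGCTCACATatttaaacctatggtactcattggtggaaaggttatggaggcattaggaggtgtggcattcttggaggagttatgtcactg
Hsd3b5: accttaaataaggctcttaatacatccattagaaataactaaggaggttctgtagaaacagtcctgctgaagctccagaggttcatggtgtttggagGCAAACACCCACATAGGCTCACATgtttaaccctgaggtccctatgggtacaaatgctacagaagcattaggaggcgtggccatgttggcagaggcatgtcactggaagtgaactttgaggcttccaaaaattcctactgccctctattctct
The pair with the most similar promoters was Hsd3b3 and Hsd3b5, which were 75.9% identical over 199 aligned bases and shared a run of 24 bases. The promoters of Hsd3b2 and Hsd3b3 had no shared run longer than 8 bases and were 50.6% identical over 235 aligned bases, although their coding sequences were the more alike. RefSeq promoters were found for 7 of the 9 enzymes, Cyp17a1 and Hsd17b2 being the others. None of the 7 held the STAT5 motif TTCNNNGAA (7.18% of 27025 promoters of the same length did, both strands searched) or the NR5A2 site CAAGGTCA (1.31%). The letters CCAAT occurred in Hsd3b3, Hsd11b1, Srd5a1 and Akr1c6 (34.5% of all promoters), AGATAA in Hsd3b3 alone (10.3%) and TATAAA in Akr1c6 alone (13.0%). These matches describe the letters in this window and show no binding.

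The A ring reductases act on the same substrates with opposite geometry. Srd5a1 gives the alpha form, which for testosterone is the stronger androgen, and Akr1d1 gives the beta form and also serves bile acid synthesis. Srd5a1 is at chr13:69573449-69611442 on the minus strand (5 exons) and overlaps Nsun2 on the opposite strand. Akr1d1 is at chr6:37530173-37568815 on the plus strand (9 exons).

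Akr1d1 measured 4.99 and 7.08 FPKM in WT, against 10.9 and 8.37 FPKM in LKO livers, on an estimated 1089, 1522, 2303 and 1637 reads. Both LKO livers were above both WT livers, and LKO replicate 1 was the highest. Its mean was 6.04 ± 1.47 FPKM in WT (SD, n = 2) and 9.65 ± 1.80 FPKM in LKO livers (SD, n = 2), 1.60-fold apart. The log2 difference was 0.68 (standard error 0.35, 95% interval −0.07 to 1.43), and it did not pass the threshold (limma adjusted p = 1.00). After median-ratio rescaling the unadjusted p was 0.0473, and the log2 difference of 0.71 was still below 2-fold.

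Srd5a1 measured 3.40 and 5.55 FPKM in WT, against 2.66 and 4.69 FPKM in LKO livers. Replicate 2 was the higher liver in both groups, the groups overlapped, and the log2 difference was −0.29 (95% interval −1.12 to 0.54, limma adjusted p = 1.00). The ratio within a liver was also picked after the values were seen. Akr1d1 was 1.47 and 1.28 times Srd5a1 in the WT livers and 4.10 and 1.79 times in the LKO livers. The ratio was higher in both LKO livers, by most in LKO replicate 1, which had both the highest Akr1d1 and the lowest Srd5a1.

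Akr1c6 and Hsd17b2 act on the same position of sex steroids in opposite directions. Akr1c6, a reductase of the aldo-keto family, makes testosterone from its keto precursor, and Hsd17b2 oxidises testosterone and estradiol to the weak keto forms. Akr1c6 is at chr13:4434306-4457530 on the plus strand (9 exons) and Hsd17b2 at chr8:117701904-117759027 on the plus strand (5 exons).

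Akr1c6 measured 45.6 and 70.8 FPKM in WT, against 45.1 and 59.5 FPKM in LKO livers, on an estimated 4919 to 7875 reads. The values of the groups interleaved, and the log2 difference was −0.13 (95% interval −0.88 to 0.61, limma adjusted p = 1.00). Hsd17b2 measured 13.1 and 12.0 FPKM in WT, against 9.67 and 13.1 FPKM in LKO livers. LKO replicate 1 was the lowest liver for Hsd17b2, while LKO replicate 2 lay within the WT range, and the log2 difference was −0.16 (95% interval −0.88 to 0.57, limma adjusted p = 1.00). Hsd17b2 was the only 1 of the 8 enzymes other than Cyp17a1 that was lower in WT replicate 2 than in WT replicate 1.

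Hsd11b1, which reactivates glucocorticoids inside the hepatocyte, was the most abundant of the enzymes. It is at chr1:193221634-193242629 on the minus strand (6 exons). Its level was 242 and 317 FPKM in WT replicates 1 and 2 and 352 and 338 FPKM in LKO replicates 1 and 2, on an estimated 31752, 40980, 44692 and 39770 reads. Both LKO livers were above both WT livers. As deposited, the step from the higher WT liver to the lower LKO liver was smaller than the gap between the WT livers. After median-ratio rescaling the values were 266 and 281 FPKM in WT and 398 and 305 FPKM in LKO livers, and that step was the larger. Its mean was 279 ± 52.7 FPKM in WT (SD, n = 2) and 345 ± 9.98 FPKM in LKO livers (SD, n = 2), with a log2 difference of 0.32 (95% interval −0.36 to 0.99, limma adjusted p = 1.00). H6pd, which supplies the NADPH that Hsd11b1 uses, measured 87.7 and 74.3 FPKM in WT, against 66.8 and 106 FPKM in LKO livers.

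Of the 8 enzymes other than Cyp17a1, 0 passed the threshold in limma, against 0.980% of all genes tested (0.437% as higher and 0.543% as lower), and 0 had an unadjusted p under 0.05. Before adjustment limma gave p = 0.331 for Hsd11b1, 0.707 for Akr1c6, 0.399 for Hsd3b3, 0.647 for Hsd17b2, 0.0730 for Akr1d1, 0.466 for Srd5a1, 0.672 for Hsd3b2 and 0.557 for Hsd3b5, where permutation of the livers can give no value under 0.333. The voom fit also gave 0 past the threshold and 1, Akr1d1, with an unadjusted p under 0.05. Their log2 differences ran from −0.29 (Srd5a1) to 0.68 (Akr1d1) with a median of 0.22, beside a median of −0.02 and a central 95% range of −0.64 to 0.66 over all genes tested. Akr1d1 alone lay outside that range. The groups did not overlap in Hsd11b1 and Akr1d1, both higher in the LKO livers, and 10.7% of all genes tested were higher without overlap. The widest of the 8 intervals, that of Hsd3b5, ran from −0.69 to 1.23, and 3 of the 8 (Hsd3b3, Akr1d1 and Hsd3b5) reached past a 2-fold rise, while that of Srd5a1 reached past a 2-fold fall. A change of 2-fold was thus not excluded by the interval for these 4 genes. The upper limits of Hsd3b2 (0.998) and Hsd11b1 (0.994) fell just short of a 2-fold rise, too close to set these genes apart from the 4.

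**Figure D3:**
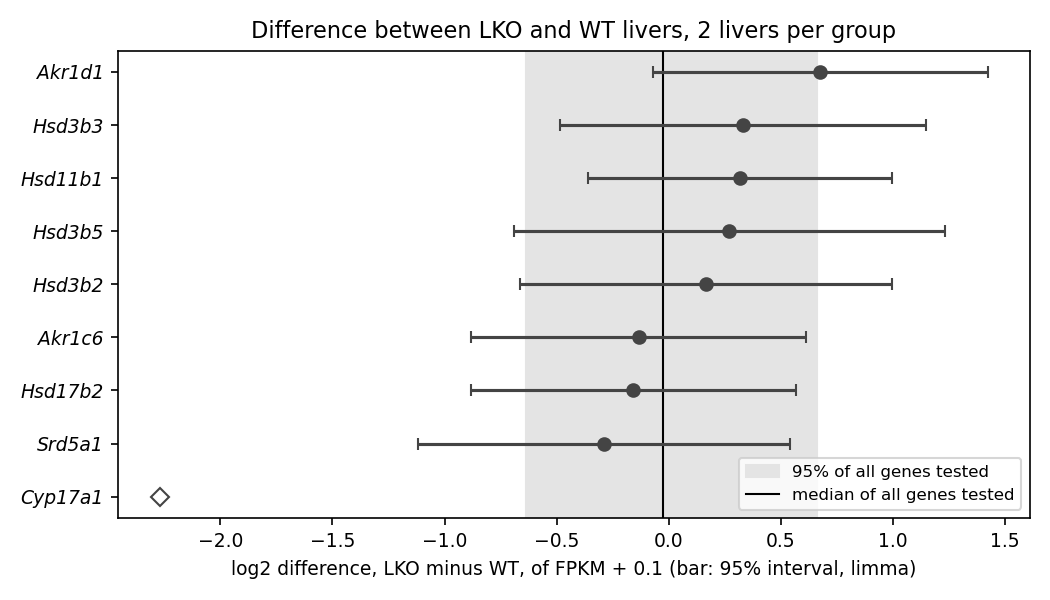
log2 difference between LKO and WT livers of FPKM + 0.1 for each enzyme, with 95% intervals from limma for the 8 enzymes tested and an open diamond without interval for Cyp17a1, which was chosen for its fall. The 8 intervals all include 0, and Akr1d1 at 0.68 lies just outside the grey band that holds 95% of all genes tested (−0.64 to 0.66).

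Replicate 2 was the higher liver for most of these enzymes in either group. In the WT livers 7 of the 8 enzymes other than Cyp17a1 were higher in replicate 2, and 80.3% of all genes tested were so. In the LKO livers 7 of the 9 enzymes were higher in replicate 2, beside 73.2% of all genes tested. The median-ratio factors of the libraries were 0.912 and 1.13 for the WT livers and 0.884 and 1.11 for the LKO livers, so the scale of the deposited values moved with the replicate number. After rescaling, the counts were 7 of 8 and 7 of 9 again, but the shares over all genes were not computed on that scale. The 3 enzymes without overlap between the groups were Cyp17a1, which was chosen for its fall, Hsd11b1 and Akr1d1 on either scale. Of all genes tested, 20.7% were without overlap in either direction as deposited.

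**Figure D4:**
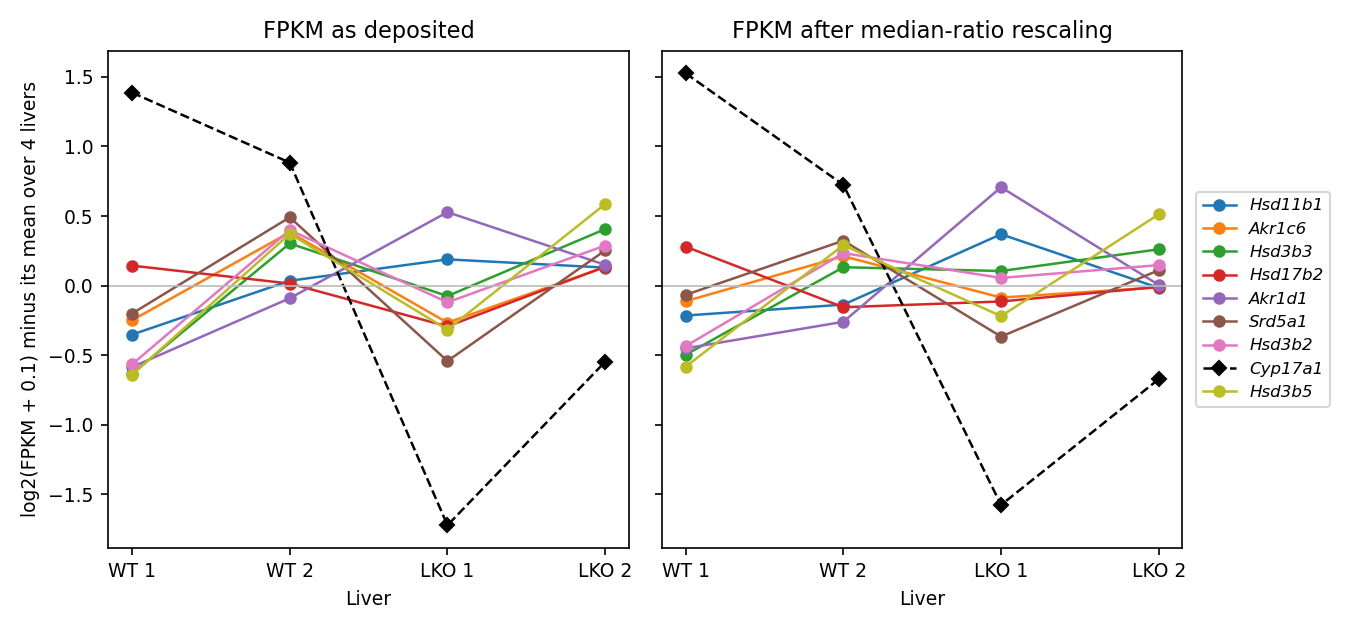
log2(FPKM + 0.1) of each enzyme minus its mean over the 4 livers, as deposited (left) and after median-ratio rescaling (right). Cyp17a1 (dashed) is above its mean in both WT livers and below it in both LKO livers on either scale, and 7 of the other 8 were higher in WT replicate 2 than in WT replicate 1.

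The other genes of the pathway were taken from 8 lists with 82 genes, of which 56 were tested. Of these, 27 were higher and 29 lower in the LKO livers, 0 were past the threshold (limma, with 1, Bcl6, at an unadjusted p under 0.05), and voom gave 0 past the threshold and 3 with an unadjusted p under 0.05. The genes listed as redox partners and NADPH supply of steroid enzymes had a median log2 difference of 0.07 over 8 genes tested. They were led by Pgrmc1 (88.6, 125, 119 and 106 FPKM in WT replicates 1 and 2 and LKO replicates 1 and 2) and Cyb5a (78.4, 104, 96.7 and 93.9 FPKM). Por, the reductase that Cyp17a1 depends on, measured 53.5 and 69.8 FPKM in WT, against 88.2 and 28.4 FPKM in LKO livers, so the LKO livers lay on either side of the WT range. Without LKO replicate 1 Por passed the threshold as lower. With each liver left out in turn, 0 to 5 of the 56 genes passed the threshold. Por, H6pd, Nr0b2, Nr5a2, Bcl6, Sult1e1, Star, Cyp11a1 and Ddx3y were singled out after their values were seen.

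Cholesterol import and the other steroidogenic P450 genes were low in liver, with 4 of 8 tested and a median of −0.02. Tspo, a mitochondrial cholesterol-binding protein, was the highest at 9.97 to 15.1 FPKM, and Cyp21a1 differed more between the LKO livers than between the groups. Among the other Hsd3b genes and Hsd11b2, 4 were tested with a median of 0.02, led by Hsd3b7 (up to 12.9 FPKM), which serves bile acid synthesis, and Hsd3b6 (1.41 to 2.19 FPKM). The other Hsd17b genes had 10 tested, 4 higher and 6 lower, with a median of −0.10. Their leading members were Hsd17b6 (44.4 to 64.8 FPKM) and the lipid droplet protein Hsd17b13 (39.4 to 71.5 FPKM). The other reductases had 7 tested, 2 higher and 5 lower, with a median of −0.20, led by Akr1c12 (19.9 to 28.9 FPKM) and Akr1c13 (12.5 to 18.1 FPKM).

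For hydroxylation and sulfation, 4 of the 13 genes listed were tested, with a median of 0.25, led by the sulfotransferase Sult2a8 (listed as 2810007J24Rik, 43.1 to 68.2 FPKM) and Cyp7b1 (7.80 to 10.8 FPKM). Sult1e1, which sulfates estrogens, had the highest log2 difference of the pathway, 1.22 (limma adjusted p = 1.00), with 1.08 and 0.209 FPKM in WT livers and 3.14 and 0.514 FPKM in the LKO livers, where the spread within each group exceeded that between them. It passed the threshold with a filter at 1 FPKM, with the replicate block, without WT replicate 1 and without LKO replicate 2. Of the 6 steroid receptors 3 were tested, with a median of 0.21, and the glucocorticoid receptor Nr3c1 (5.07 to 6.53 FPKM) and the estrogen receptor Esr1 (0.614 to 1.22 FPKM) led.

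The transcription factors listed for hepatic and steroidogenic P450 genes had 16 of 18 tested, 6 higher and 10 lower, with a median of −0.08, led by Hnf4a (48.9 to 61.9 FPKM) and Nr1i3 (9.37 to 37.3 FPKM). Nr5a2, the liver relative of the adrenal factor Nr5a1 and a known regulator of steroidogenic P450 genes, was nearly level, at 5.70 and 6.12 FPKM in WT livers and 5.84 and 5.81 FPKM in the LKO livers. Its repressor partner Nr0b2 measured 3.37 and 5.73 FPKM in WT, against 1.27 and 11.1 FPKM in LKO livers, on either side of the WT range. Bcl6, a repressor of sex-biased liver genes, measured 0.292 and 0.372 FPKM in WT, against 0.624 and 0.672 FPKM in LKO livers (log2 difference 0.80, limma adjusted p = 1.00), short of a 2-fold change.

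**Figure D5:**
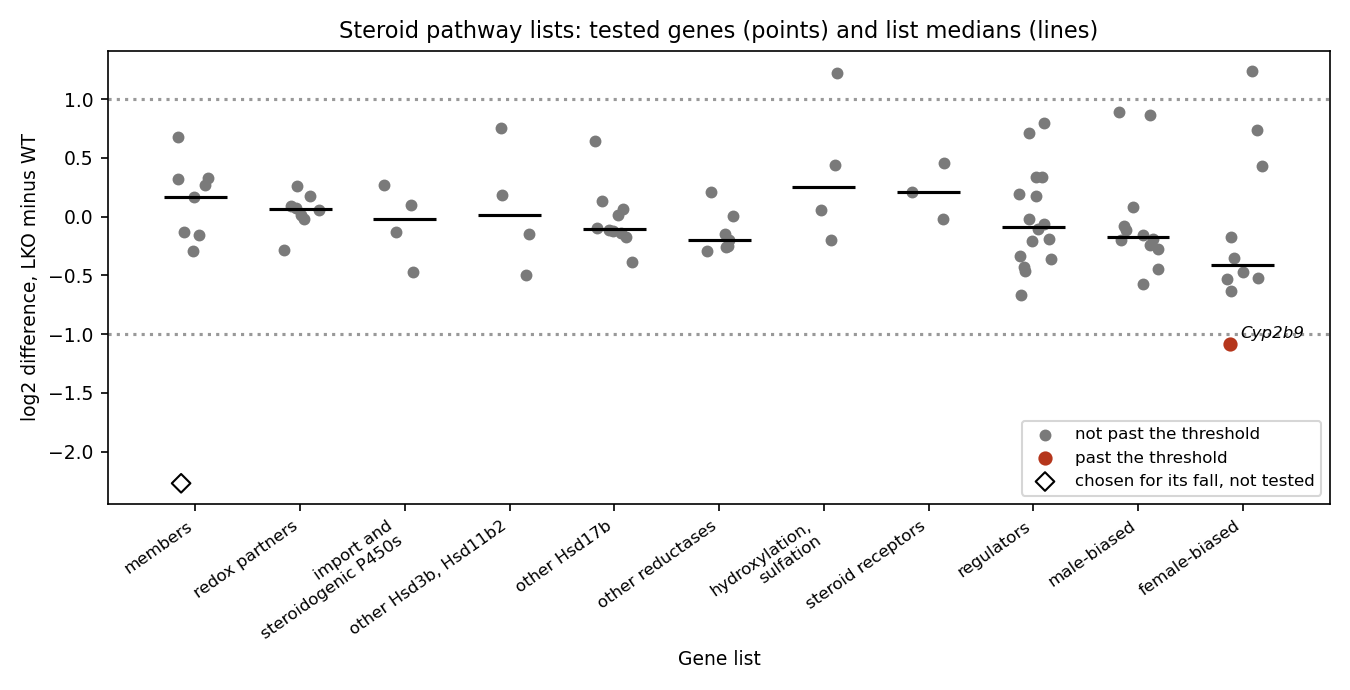
log2 difference between LKO and WT livers for the tested genes of each list, 1 point per gene, with the list median as a line and dotted lines at a 2-fold change. Among the lists plotted, which leave out the cell type markers, Cyp2b9 at −1.09 is the gene past the threshold, and Cyp17a1 at −2.27 (open diamond, chosen for its fall) lies apart from the genes of every pathway list.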

How the data were processed

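Liver RNA-seq of 2 WT and 2 Brg1 LKO samples was analysed. The authors deposited FPKM values per gene and liver, computed after Trimmomatic and alignment with HISAT2 to GRCm38. The study's methods name Cufflinks for FPKM, and the submitters' processing notes name HISAT2 2.0.4 and StringTie 2.1.4. The methods describe stranded TruSeq libraries, the labels a BGIseq protocol. FPKM is relative to the library total, so abundant genes that change shift the others, and no further scaling between livers is stated. The read counts were not used here.

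Groups came from the labels. Transcript positions and lengths came from GENCODE M21 (98.3% of transcripts matched), and 26 symbols turned into dates were restored. Depth came from the steps of low values, of which 88.7% to 89.6% lay within 0.1 of a whole read, and read estimates and the limit of 3 reads cover counting error only. Genes averaging 0.1 FPKM or more were fitted in limma 3.58.1 (R 4.3.3, lmFit and eBayes with trend) on log2(FPKM + 0.1), with Benjamini-Hochberg adjustment over all genes tested. The procedure was tested on simulated data. Other values were computed with Python 3.11.15 and pandas 2.3.3. Members and lists were chosen with earlier results of these data known. Named were the 9 enzymes, Smarca4, every list gene past the threshold, the 2 most abundant tested genes of each list and the 5 genes most like Cyp17a1. All further genes named were chosen after their values were seen. Alternatives were pseudocounts of 1 and 0.01, no filter, a filter at 1 FPKM, median-ratio and quantile scaling, eBayes without trend, a replicate block, each liver left out, and voom on the estimated reads, which was added after the data were seen.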

Additional observations from a re-analysis of the deposited data

How the results depend on the processing

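The number of all genes past the threshold, 121, was 18 with a pseudocount of 1, 80 with no filter, 68 with the stricter filter at 1 FPKM (fewer genes tested), and 78 to 552 with a liver left out, and the cause was not tested beyond that. It was between 82 and 167 under the other settings. The share of these genes that were lower in the LKO livers was 55.4% as reported, 33.3% with a pseudocount of 1, 44.1% when filtered at 1 FPKM, 66.3% with no filter, 34.6% without WT replicate 2, 62.8% without WT replicate 1, 27.2% without LKO replicate 1 and 70.9% without LKO replicate 2. After Benjamini-Hochberg adjustment, limma gave a p under 0.05 for 2 genes with the filter at 1 FPKM, 269 without LKO replicate 1 and 140 without LKO replicate 2.

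Among the 8 enzymes other than Cyp17a1, 103 values were recomputed. None passed the threshold and 10 changed direction, all 10 by leaving out 1 liver. With each liver left out in turn, the log2 difference of Hsd3b2 ran from −0.32 to 0.65, of Hsd3b3 from −0.14 to 0.80, of Hsd3b5 from −0.24 to 0.78, of Srd5a1 from −0.69 to 0.11, of Akr1c6 from −0.45 to 0.18 and of Hsd17b2 from −0.37 to 0.056. Hsd3b2 and Hsd3b5 were lower in the LKO livers without WT replicate 1 (−0.32 and −0.24) or LKO replicate 2 (−0.04 and −0.18), and Hsd3b3 without WT replicate 1 (−0.14). Srd5a1 and Akr1c6 were higher without WT replicate 2 (0.056 and 0.18) or LKO replicate 1 (0.11 and 0.066), and Hsd17b2 without LKO replicate 1 (0.056). Hsd11b1 and Akr1d1 were higher, and Cyp17a1 lower, under every setting run. Hsd11b1 ran from 0.12 without WT replicate 1 to 0.51 without WT replicate 2 and was 0.074 under quantile scaling, and Akr1d1 ran from 0.43 without WT replicate 1 to 0.92 without WT replicate 2. The median over the 9 enzymes, 0.17, ran from −0.24 without WT replicate 1 to 0.51 without WT replicate 2.

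The labels give the groups the same replicate numbers. Across genes, the difference between the 2 WT livers hardly correlated with that between the 2 LKO livers (correlation of deviations 0.03, 2 pairs). Such a correlation cannot see a shift shared by all genes. Replicate 2 was higher for 80.3% of genes tested in the WT livers and for 73.2% in the LKO livers. Pairing of animals is not stated in the labels, so the numbers were not taken as pairs in the main fit. With the replicate block, 108 genes passed the threshold and 0 of the 8 enzymes did. Depth limits the low values, above all Hsd3b5 with an estimated 4 to 23 reads.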
